A study of Mus musculus with 42 samples.

Results

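The comparison described here is the response of mouse uterine tissue-resident NK (trNK) cells to interleukin-21 (IL-21) after 24 h of culture, measured by bulk RNA-Seq in 2 libraries of cells cultured with IL-21 (+IL-21) and 2 libraries of cells cultured without it (-IL-21). The 4 libraries were chosen by the time and treatment in their labels. They belong to a time course of 16 libraries in a series of 42 samples. Of 54446 genes in the count tables, 3503 were expressed by the rule used here, which asked for an RPKM (reads per kilobase of gene length, scaled to library size) above 10 in both libraries of at least 1 of the 8 groups of the time course. The filter used library sizes before TMM scaling and the levels below use TMM-scaled sizes, so a gene near the limit, such as Bzw2, can pass without a printed level above 10. The cells came from wild-type C57BL/6 females aged 8 to 12 weeks at gestation day (gd) 6.5 and were sorted as living leukocytes that lacked other lineage markers, bore NK1.1, NKp46 and CD49a, and were CXCR6-. By the study's account they were trNK-V, the subgroup with the least 4-1BB and CD55 on its surface, whereas the labels call them trNK only. Every group was kept in IL-15, at 10 ng/ml by the sample labels and 15 ng/ml by the treatment protocol, and the +IL-21 groups also received IL-21 at 20 ng/ml. No group carried a gene deletion. The number of dams pooled for a library was not given in the sources used here. The study describes these data as representative of 2 independent experiments. It does not say whether the 2 libraries of a group came from separate cultures or animals. The p-values therefore measure only the spread between libraries of a group, which may be technical. That spread was estimated over all 16 libraries, so the other times weigh on each p-value and standard error (SE).

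IL-21 is a cytokine made mainly by CD4 T cells and NKT cells. Its receptor pairs the IL-21 receptor chain (Il21r) with the common gamma chain (Il2rg), and binding activates JAK1 and JAK3, which phosphorylate STAT3 and, to a lesser degree, other STAT factors. Phosphorylated STAT dimers enter the nucleus and bind DNA at short palindromic sites. In NK cells and CD8 T cells IL-21 is known for raising granzyme and perforin expression. Granzymes are serine proteases stored in cytotoxic granules, and perforin forms the pores through which they enter a target cell. IL-15, present in both groups, keeps NK cells alive through STAT5.

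The 4 libraries held between 30328290 and 42878924 counts, within the range of 28541369 to 66468883 over the time course. Of the 8 genes of the NK identity list 7 passed the filter. The summed level of all 8 was 26691 and 26116 RPKM without IL-21 and 14621 and 16174 RPKM with it. Most of this sum came from Nkg7 and Tyrobp, so it says little about the other members. Of the markers of other cell types, Cd3e, Cd4, Cd8a and Cd8b1 of T cells, Ms4a1 and Pax5 of B cells, and C1qa, C1qb, C1qc and Adgre1 of macrophages had no count in any of the 4 libraries. The 9 T cell markers summed to 543 and 599.8 RPKM without IL-21 and 387 and 440.2 with it, most of it Trbc2, the T cell receptor beta constant gene, at 463, 464, 317 and 357 RPKM. The macrophage list was detected through Cd68 and summed to 38.0 and 70.8 RPKM without IL-21 and 25.3 and 24.2 with it. Markers of type 1 innate lymphoid cells summed to 15.0 and 43.4 RPKM against 20.7 and 16.9. Endothelial and epithelial markers summed to 17.1 and 10.7 RPKM against 10.2 and 9.36, and mast cell markers to 8.95 and 4.42 against 2.23 and 1.34. The B cell, neutrophil, stromal and erythroid lists each summed to at most 1.24 RPKM in any library. The part of these cells in the results below was not tested. Bulk libraries cannot tell fewer cells of a type from less RNA per cell.

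The receptor for IL-21 was transcribed at a low level. Il21r was at 0.697 and 0.781 RPKM without IL-21 and at 1.41 and 1.18 RPKM with it, and Stat3, the transcription factor downstream of it, at 1.44 and 1.31 against 3.78 and 2.49 RPKM. Both lay below the filter and were not tested. Il2ra, the IL-2 receptor alpha chain, was also below it, at 1.75 and 0.793 RPKM without IL-21 and 6.23 and 6.05 with it. For each of the 3 genes both +IL-21 libraries lay above both -IL-21 libraries, as they did for 32.9% of all genes tested. The list of cytokine receptors and JAK kinases held 27 genes, of which 6 passed the filter and 0 were called by edgeR, DESeq2 or limma voom. At an unadjusted p under 0.05, 1 of the 6 was lower, against 9.65% of all genes tested. Il2rg was at 396 and 409.9 RPKM without IL-21 and 351 and 339 with it, and Jak1 at 51.0 and 41.8 against 37.7 and 33.5. Stat4, the STAT factor downstream of IL-12 and the only 1 of the 7 STAT genes past the filter, was at 29.2 and 33.3 RPKM without IL-21 and 25.1 and 29.4 with it.

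At 24 h IL-21 raised 12 genes and lowered 46. A gene was called where edgeR's quasi-likelihood test, fitted over the 16 libraries, gave a Benjamini-Hochberg adjusted p under 0.05 and a fold change above 2. The 58 called genes were 1.66% of the 3503 tested, the 12 higher ones 0.343% and the 46 lower ones 1.31%. Ly6a, Prf1, Gzmb and Lilr4b were among the higher genes, and Fhit, Cd7, Klrb1, Ltb, Ccl5 and Klrb1c among the lower ones. Over all genes tested the log2 fold changes had a median of 0.01, with 1787 genes positive and 1716 negative, close to an even division. By an unadjusted p under 0.05 with a fold above 2, 246 genes passed (7.02%), 78 higher (2.23%) and 168 lower (4.8%). With any 1 of the 4 libraries left out, 1 to 5 genes stayed called, all of them lower, and Cd7 was the only gene called in each of those fits. Cd7 was also the only call by edgeR with a looser filter on low counts (1 of 14888 genes) or with none (1 of 19778). Without the 72 h libraries, whose replicates lay far apart (more than 2-fold in 32.3% and 30% of genes, against 4.82% and 2.17% at 24 h), 78 genes were higher and 136 lower, and all 56 of the called genes that were still tested stayed called.

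**Figure D1:**
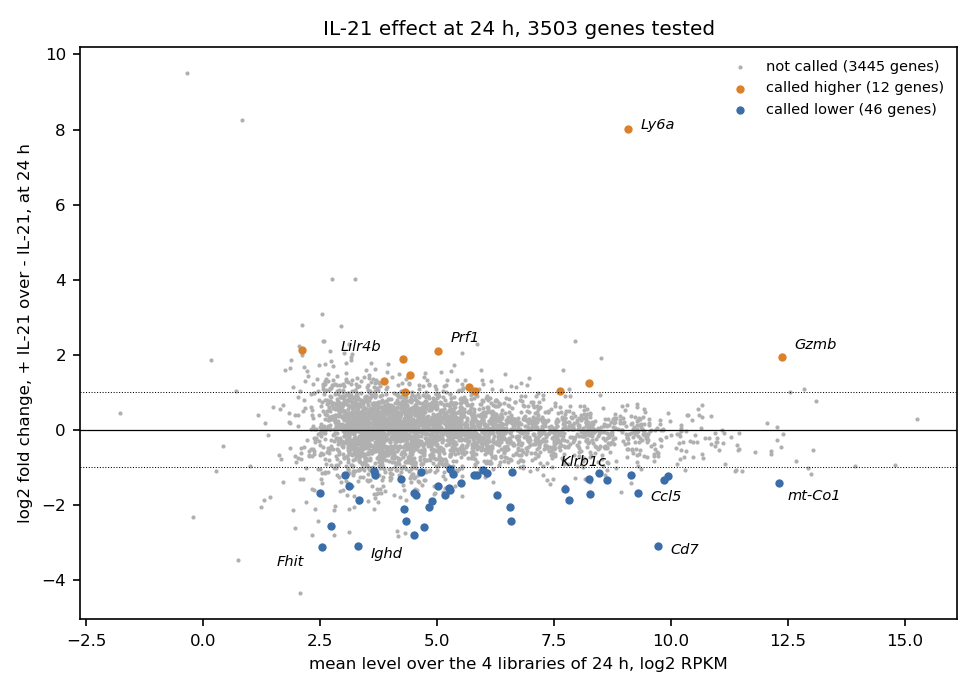
Log2 fold change of +IL-21 over -IL-21 at 24 h (y axis) against mean level (x axis, log2 RPKM) for the 3503 genes tested, 1 point a gene. Grey points are the 3445 genes not called, and coloured points the 12 higher and 46 lower genes. Among the called genes Ly6a is highest, at a log2 fold change of 8.01, while the points of Bcl3 (8.26) and Il10 (9.50) lie above it and were not called. Il10 had 0 counts in both -IL-21 libraries, so its plotted value comes from the fit and is no measured fold. The lower genes lie between -3.12 and -1.05 and are spread over the whole range of levels.

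Granzyme B and perforin, the central pair of the cytotoxic granule, both rose. Gzmb (chr14:56258838-56262260, minus strand, GRCm38) was at 2030 and 2386 RPKM without IL-21 and at 8993 and 8001 RPKM with it. Prf1 (chr10:61297833-61304680, plus strand) was at 11.8 and 12.6 RPKM without IL-21 and at 56.8 and 48.7 RPKM with it. The groups did not overlap for either gene, and the replicates of a group lay close together against the gap between groups. Gzmb rose 3.85-fold (log2 1.94 ± 0.36 SE, n = 2 against 2, adjusted p = 0.021 by edgeR) and Prf1 4.33-fold (log2 2.11 ± 0.44 SE, adjusted p = 0.0348 by edgeR). Gzmb remained far more abundant per kilobase than Prf1 in every library.

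The other granule genes gave no call by edgeR over the 16 libraries. The cytotoxic granule list held 31 genes, of which 19 passed the filter. Of these 19, 11 had a positive and 8 a negative fold change, and 2 were called higher (0.343% of all genes tested) and 0 lower (1.31%). The log2 fold changes had a median of 0.35 against 0.01 over all genes tested. This median depended on the filter. With a looser filter on low counts or with none it was 0.07 over 30 genes, against 0.03 and 0 over all genes. Without 24 h -IL-21 replicate 1 it was 0.18, and without 24 h +IL-21 replicate 2 it was 0.17. Both +IL-21 libraries lay above both -IL-21 libraries for 9 of the 19 and below for 5, where 32.9% of all genes tested lay above, 33.1% below and 34% overlapped. DESeq2 called 5 of the 19 higher (1.17% of all genes tested), limma voom 4 (0.457%), and edgeR without the 72 h libraries 7 (2.31%).

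Of the other granzymes on the list, Gzma, Gzmc, Gzmd, Gzme and Gzmf passed the filter, while Gzmg, Gzmk, Gzmm and Gzmn did not, all 4 at or below 9.23 RPKM in every library. Gzma, which had the highest mean among them in each group, was at 5243 and 4296 RPKM without IL-21 and at 10065 and 10122 with it (log2 1.08, adjusted p = 0.308 by edgeR). Gzmc was at 3403 and 4577 RPKM against 8649.9 and 7516 (log2 1.02, adjusted p = 0.0858 by edgeR). Gzme was at 94.4 and 66.7 RPKM against 426 and 402 (log2 2.36, adjusted p = 0.071 by edgeR). In each the +IL-21 libraries were the higher ones and the groups did not overlap, yet none was called by edgeR over the 16 libraries. Gzma was called in 3 of 29 other settings. These were the 24 h libraries alone, the fit without the 72 h libraries and the unadjusted p. DESeq2 and limma voom did not call it. Gzmc, Gzmd, Gzme and Gzmf have near-identical copies, and counting can divide their reads, so their levels are uncertain. Serpinb9, the inhibitor that protects a killer cell from its own granzyme B, was at 65.9 and 72.5 RPKM without IL-21 and at 189.6 and 172.6 with it (log2 1.39, adjusted p = 0.247 by edgeR). Nkg7, a granule membrane protein, ran the other way, at 10285 and 9810.4 RPKM against 6644 and 7165 (log2 -0.54, adjusted p = 0.318 by edgeR).

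The study names genes that differ along the trNK stages, some higher and some lower at later stages (Il10rb and Il21r are among the latter). This list of 19 genes was drawn in part from samples of the same series and mixes both directions, so its counts and median are no independent evidence of a direction. Of its 13 genes tested, 10 were positive, 2 (Gzmb and Prf1) were called higher (0.343% of all genes tested) and 0 lower (1.31%), with a log2 median of 0.78 against 0.01 over all genes tested. Spp1, the secreted matrix protein osteopontin, was at 6840 and 6080.2 RPKM without IL-21 and at 10920 and 11206 with it (log2 0.78, adjusted p = 0.278 by edgeR). The markers by which the subgroups were sorted gave no call. Tnfrsf9, which encodes the costimulatory receptor 4-1BB, was at 247 and 279 RPKM against 387 and 327 (log2 0.44, adjusted p = 0.711 by edgeR). Cd55, which encodes the complement regulator of that name, was at 51.4 and 39.5 RPKM against 37.4 and 48.6 with overlapping groups (log2 -0.08, adjusted p = 0.965 by edgeR).

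Ly6a, which encodes the surface protein Sca-1, a marker of stem cells and of activated lymphocytes, had the largest fold change of any called gene. Ly6a (chr15:74994877-74998031, minus strand) was at 6.61 and 1.93 RPKM without IL-21 and at 996 and 1181 RPKM with it. It was almost silent in both -IL-21 libraries and among the abundant genes in both +IL-21 libraries. Only +IL-21 groups brought it past the filter. The fold was 257 (log2 8.01 ± 1.68 SE, adjusted p = 0.0366 by edgeR). The -IL-21 libraries differed from each other far more in proportion than the +IL-21 libraries did. Lilr4b, an immunoglobulin-like receptor of the LILR family, was at 7.13 and 9.42 RPKM without IL-21 and at 32.1 and 29.4 RPKM with it. It rose 3.71-fold (log2 1.89 ± 0.24 SE, adjusted p = 0.00652 by edgeR), the lowest adjusted p among the 12 higher genes. Lilr4b (chr10:51480632-51486703, plus strand) has a near-identical neighbour, so the split of reads between them is uncertain.

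STAT dimers bind palindromes of the form TTCNNNGAA, and STAT3 and STAT5 often the narrower form TTCCNGGAA. Both read the same on either strand, and every match to the second is also a match to the first. The RefSeq windows from 250 bases before to 50 bases after the gene start (GRCm38.p6, 300 bases) were searched for the called genes with an entry, and a gene with several windows was counted once. TTCNNNGAA was present in 2 of 10 higher genes (Gzmb and Lilr4b; 20%) and in 6 of 32 lower genes (Dtnbp1, Gimap3, Ltb, Tgtp2, Use1 and Zfp945; 18.8%), against 203 of 2520 genes tested (8.1%) and 2582 of all 27025 genes with a window (9.6%). TTCCNGGAA was present in 0 of 10 and in 1 of 32 (Tgtp2; 3.1%), against 40 of the 2520 (1.6%) and 364 of the 27025 (1.3%). A match is a description of the letters and not a binding site. The windows of the higher genes Gzmb and Lilr4b and of the lower genes Ltb and Tgtp2 are shown because they hold the motif, which is in capitals, and are written 5′ to 3′ on the strand of the gene. Counted from the RefSeq gene start, with negative numbers upstream, the match begins at 37 in Gzmb (chr14:56262285-56262584, minus strand) and at -104 in Lilr4b (chr10:51480362-51480661, plus strand). It begins at -172 in Ltb (chr17:35194257-35194556, plus strand) and at -81 in Tgtp2 (chr11:49064163-49064462, minus strand). The RefSeq starts differ from the gene starts in the files, and in Gzmb the whole window lies upstream of the start in the files.
Gzmb: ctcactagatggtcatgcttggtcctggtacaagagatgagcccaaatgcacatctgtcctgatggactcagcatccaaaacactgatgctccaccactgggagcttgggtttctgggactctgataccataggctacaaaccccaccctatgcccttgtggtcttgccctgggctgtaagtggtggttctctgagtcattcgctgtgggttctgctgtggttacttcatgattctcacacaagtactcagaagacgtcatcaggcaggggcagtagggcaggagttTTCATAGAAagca
Lilr4b: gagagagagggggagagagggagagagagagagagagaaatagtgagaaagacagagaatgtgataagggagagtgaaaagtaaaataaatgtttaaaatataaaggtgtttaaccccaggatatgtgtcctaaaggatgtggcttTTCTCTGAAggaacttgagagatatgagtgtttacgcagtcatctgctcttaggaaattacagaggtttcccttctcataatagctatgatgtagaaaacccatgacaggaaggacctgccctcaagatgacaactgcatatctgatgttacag
Ltb: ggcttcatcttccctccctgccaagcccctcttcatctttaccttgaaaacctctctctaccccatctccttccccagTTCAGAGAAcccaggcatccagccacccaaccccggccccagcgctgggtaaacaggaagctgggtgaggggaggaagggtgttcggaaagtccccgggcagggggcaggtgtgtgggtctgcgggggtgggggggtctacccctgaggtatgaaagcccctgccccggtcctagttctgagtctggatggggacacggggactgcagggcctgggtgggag
Tgtp2: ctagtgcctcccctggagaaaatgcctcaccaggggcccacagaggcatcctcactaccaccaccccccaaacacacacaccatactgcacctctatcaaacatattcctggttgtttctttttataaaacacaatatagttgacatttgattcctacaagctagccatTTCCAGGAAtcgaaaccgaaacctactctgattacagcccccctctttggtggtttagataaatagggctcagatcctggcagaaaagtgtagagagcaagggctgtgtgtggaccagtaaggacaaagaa

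Hspe1, Ppid, Gnl3, Pno1 and Eif2s2, which take part in protein folding, ribosome assembly or the start of translation, were also higher with IL-21. Hspe1, the mitochondrial co-chaperonin, was at 167 and 197 RPKM without IL-21 and at 386 and 479 with it (log2 1.25 ± 0.26 SE, adjusted p = 0.0366 by edgeR). Ppid, a cyclophilin that works with HSP90, was at 9.93 and 12.9 RPKM against 34.8 and 28.5 (log2 1.47 ± 0.25 SE, adjusted p = 0.0177 by edgeR). Gnl3, the nucleolar GTPase nucleostemin, was at 7.34 and 9.47 RPKM against 19.8 and 22.1 (log2 1.31 ± 0.24 SE, adjusted p = 0.021 by edgeR). In all 3 the groups were apart, with the replicates of a group nearer to each other than to the other group. Pno1, a factor in the making of the small ribosomal subunit, was at 35.4 and 29.1 RPKM against 82.9 and 59.1. Eif2s2, the beta subunit of the initiation factor eIF2, was at 35.5 and 38.1 RPKM against 71.4 and 80.4. Their log2 fold changes were 1.14 (adjusted p = 0.0341 by edgeR) and 1.04 (adjusted p = 0.031 by edgeR).

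The remaining higher genes were Bzw2, Hsd17b10 and Magt1. Bzw2, a regulator of start codon choice in translation, was low in all 4 libraries, at 1.74 and 1.48 RPKM without IL-21 and 8.55 and 5.59 with it (log2 2.13 ± 0.46 SE, adjusted p = 0.0387 by edgeR). Hsd17b10, a mitochondrial dehydrogenase that is also a subunit of mitochondrial RNase P, was at 139 and 125 RPKM against 287 and 249 (log2 1.02, adjusted p = 0.0203 by edgeR). Magt1, a magnesium transporter and part of the oligosaccharyltransferase, was at 14.4 and 11.97 RPKM against 25.5 and 27.7 (log2 1.01, adjusted p = 0.0348 by edgeR). The groups did not overlap for any of the 3.

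**Figure D2:**
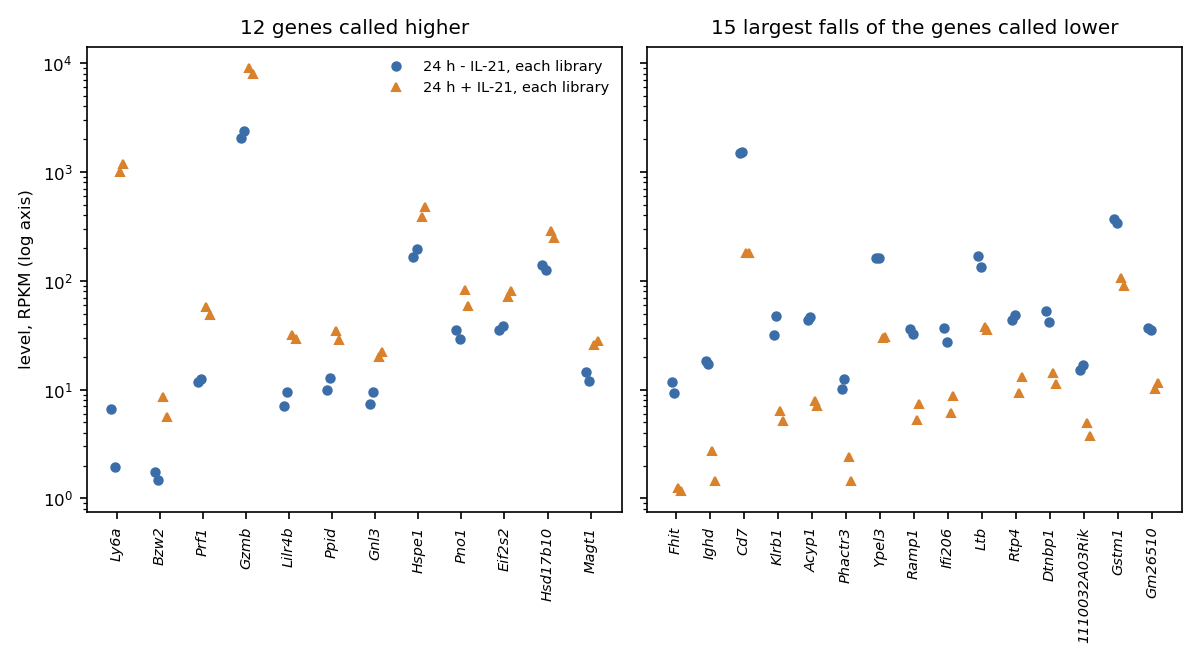
Level of each library at 24 h (y axis, RPKM on a log scale) for the 12 higher genes and the 15 lower genes with the largest fall (x axis, 1 panel a direction), with -IL-21 and +IL-21 libraries in different colours and 1 point a library. In every gene shown the 2 colours are apart. Ly6a spans from 1.93 to 1181 RPKM and Cd7 from 179 to 1539 RPKM.

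Most other members of the lists that hold these genes also had positive fold changes but did not pass the test. Of 20 heat shock and chaperone genes, 11 passed the filter, all 11 were positive with both +IL-21 libraries above both -IL-21 libraries (32.9% of all genes tested lay so), and 1 (Hspe1) was called higher (0.343% of all genes tested), with a log2 median of 0.91. Of 45 Myc and ribosome biogenesis genes, 20 passed, 18 were positive, and 2 (Gnl3 and Pno1) were called higher, with a median of 0.69. Ncl, the nucleolar protein nucleolin, was at 22.4 and 21.8 RPKM without IL-21 and 49.1 and 49.95 with it (log2 1.16, adjusted p = 0.0529 by edgeR). Myc itself was at 12.1 and 8.42 RPKM against 19.6 and 14.4 (log2 0.73, adjusted p = 0.5 by edgeR). For the Myc list limma voom called 0 genes, DESeq2 4 higher (1.17% of all genes tested) and edgeR without the 72 h libraries 6 higher (2.31%).

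Genes of the endoplasmic reticulum (ER), where secreted and granule proteins fold, had a log2 median of 1.00. Of 27 genes on the ER stress list 19 passed the filter and 18 of them were positive, but the only called gene, Ddit3, was lower. Of all genes tested, edgeR called 0.343% higher and 1.31% lower. Ddit3 encodes CHOP, the factor that links ER stress to cell death, and was at 32.6 and 36.7 RPKM without IL-21 and at 12.4 and 9.36 with it (log2 -1.67 ± 0.35 SE, adjusted p = 0.0348 by edgeR). The chaperones of the list were on the opposite side. At an unadjusted p under 0.05, 10 of the 19 were higher, against 5.4% of all genes tested. Hspa5, the chief ER chaperone BiP, was at 21.4 and 14.6 RPKM against 85.9 and 64.1 (log2 2.06, adjusted p = 0.121 by edgeR), and Manf at 69.7 and 58.4 against 139 and 145 (log2 1.15, adjusted p = 0.0518 by edgeR). DESeq2 called 4 of the 19 higher (1.17% of all genes tested) and 1 lower (3.0%). Without the 72 h libraries edgeR called 6 higher (2.31%) and 1 lower (4.03%). limma voom called 1 higher (0.457%) and 0 lower (1.17%), with Ddit3 at an adjusted p of 0.0753.

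Several of the lower genes encode receptors of the NK cell surface. Cd7, an immunoglobulin superfamily receptor of T and NK cells, was at 1496 and 1539 RPKM without IL-21 and at 179.7 and 179.5 with it. The 2 libraries of each group were nearly equal, and the groups were far apart. Cd7 (chr11:121036747-121039418, minus strand) fell 8.45-fold (log2 -3.08 ± 0.23 SE, adjusted p = 0.000116 by edgeR), the lowest adjusted p of all genes tested. Klrb1c, which encodes NK1.1, the receptor used in the sort, was at 449.7 and 423 RPKM without IL-21 and at 179.7 and 173 with it. Klrb1c (chr6:128778485-128789215, minus strand) fell by 1.30 on the log2 scale (SE 0.15, adjusted p = 0.00383 by edgeR). Klrb1, a lectin-like receptor gene of the same cluster, was at 31.8 and 47.7 RPKM against 6.37 and 5.17 (log2 -2.79 ± 0.41 SE, adjusted p = 0.00927 by edgeR). The Klrb1 genes are close relatives, and reads shared among them are a limit of each value.

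Fcgr3, the Fc receptor through which NK cells bind antibody-coated targets, was at 327 and 311 RPKM without IL-21 and at 114 and 101 with it (log2 -1.57 ± 0.28 SE, adjusted p = 0.0202 by edgeR). Cd226, the activating receptor DNAM-1, was at 61.6 and 71.0 RPKM against 26.3 and 23.5 (log2 -1.41 ± 0.28 SE, adjusted p = 0.0306 by edgeR). Pvrig, an inhibitory receptor for nectin-2, the ligand that DNAM-1 also binds, was at 128 and 139 RPKM against 63.8 and 58.9 (log2 -1.12, adjusted p = 0.0341 by edgeR). Clec2i, a lectin-like gene of the NK gene complex, was at 58.5 and 54.5 RPKM against 25.9 and 24.2 (log2 -1.17). All 4 fell, and in each the higher +IL-21 library lay well below the lower -IL-21 library.

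Across the list of 42 NK receptors and adaptors, 38 passed the filter. Of these 35 were negative and 3 positive, 4 (Cd7, Fcgr3, Cd226 and Klrb1c) were called lower by edgeR and 0 higher, and the log2 fold changes had a median of -0.71. Both +IL-21 libraries lay below both -IL-21 libraries in 31 of the 38, against 33.1% of all genes tested, of which 1.31% were called lower. DESeq2 called 6 of the 38 lower (3.0% of all genes tested), limma voom 4 (1.17%) and edgeR without the 72 h libraries 7 (4.03%). At an unadjusted p under 0.05 with no limit on the fold, 21 of the 38 were lower, against 9.65% of all genes tested. The signalling adaptors were not called by edgeR. Tyrobp, which encodes DAP12, was at 11220 and 11594 RPKM without IL-21 and 4709 and 5385 with it (log2 -1.18, adjusted p = 0.155 by edgeR). Hcst, which encodes DAP10, was at 829.9 and 828 RPKM against 286 and 338 (log2 -1.41, adjusted p = 0.0826 by edgeR). Ncr1, which encodes NKp46, was at 1020 and 934 RPKM against 618 and 626 (log2 -0.65, adjusted p = 0.0537 by edgeR). Klrg1, an inhibitory receptor of mature NK cells, was at 121 and 125 RPKM against 125 and 121 (log2 0.00, adjusted p = 0.997 by edgeR), with groups that coincided. The sign of this last value changed between settings.

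**Figure D3:**
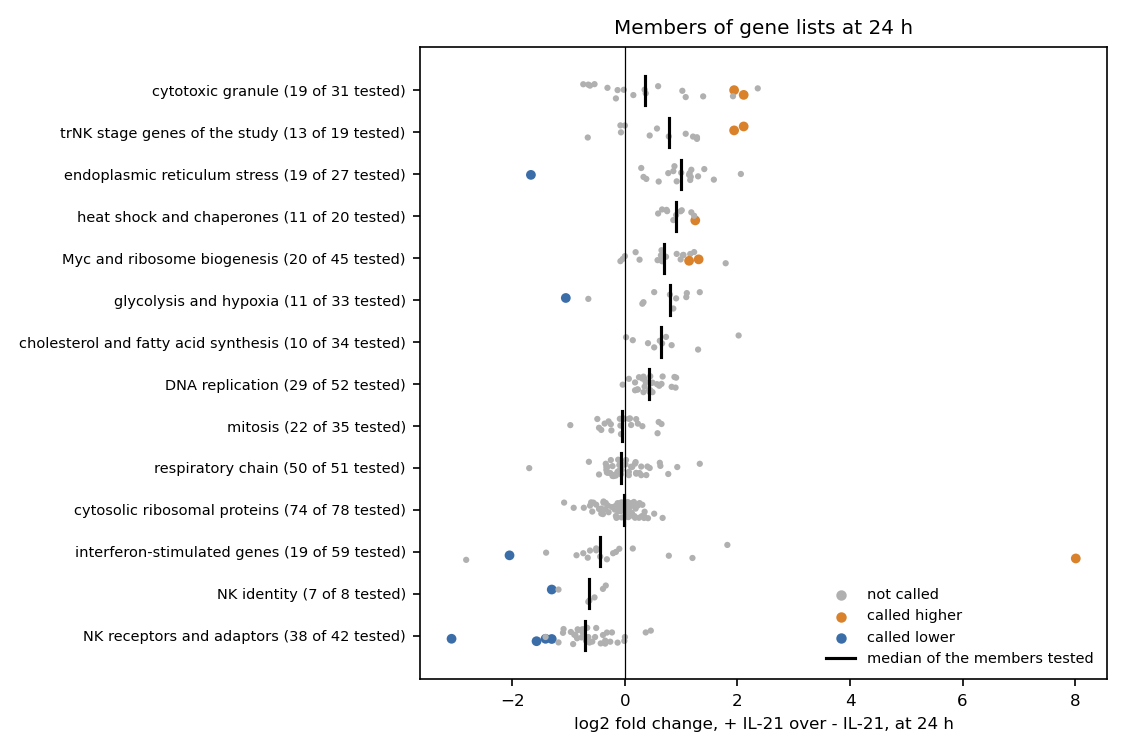
Log2 fold change of +IL-21 over -IL-21 at 24 h (x axis) for the members tested of 14 gene lists (y axis), 1 point a gene, with a bar at each list's median and larger coloured points for called genes. NK receptors and adaptors lie left of 0 in 35 of 38 genes, heat shock and chaperone genes lie right of 0 in all 11, and ER stress genes in 18 of 19.

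Among secreted factors 2 genes fell. Ltb, which encodes lymphotoxin beta, a membrane-bound cytokine of the TNF family, was at 169.5 and 134 RPKM without IL-21 and at 37.3 and 35.5 with it. Ccl5, a chemokine that draws T cells and monocytes, was at 936 and 999 RPKM against 307 and 296. Neither gene's groups overlapped. Ltb fell by 2.06 on the log2 scale (SE 0.37, adjusted p = 0.021 by edgeR) and Ccl5 by 1.68 (SE 0.31, adjusted p = 0.0215 by edgeR). Of the 36 genes on the list of chemokines and secreted factors 12 were tested, and these 2 were the only ones called by edgeR, where 1.31% of all genes tested were lower. By limma voom Ltb was not called (adjusted p = 0.0676), and 1 member of the list was higher (0.457% of all genes tested). Xcl1, the chemokine of cross-presenting dendritic cells, was at 5505 and 5802 RPKM against 5037 and 5395, and Ifng at 71.9 and 14.2 against 63.5 and 59.9, so that for Ifng the -IL-21 replicates were further apart than the groups.

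Il10, which encodes the regulatory cytokine interleukin-10, had 0 counts in both -IL-21 libraries and 110 and 47 counts in the +IL-21 libraries. Against a floor of 3 counts per library Il10 was at least 24.9-fold higher with IL-21, while its adjusted p was 0.14 by edgeR. Bcl3, a nuclear regulator of NF-kB, had 0 and 2 counts without IL-21 and 426 and 233 with it (adjusted p = 0.0858 by edgeR). Neither gene was called by edgeR, although the groups did not overlap in either. With IL-21 at 24 h Il10 was at 2.07 and 1.10 RPKM and Bcl3 at 4.24 and 2.88. These levels lie under the limit of 10 RPKM, so both genes were tested only because another group passed it. DESeq2 called 1 of the 4 cytokine feedback genes tested, the list that holds Bcl3, higher (1.17% of all genes tested).

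Of the 59 interferon-stimulated genes listed 19 were tested, 14 were negative and 5 positive, and Ly6a was called higher (0.343% of all genes tested) and Rtp4 lower (1.31%), with a log2 median of -0.44 against 0.01 over all genes tested. Rtp4, a chaperone for membrane receptors, was at 43.8 and 48.3 RPKM without IL-21 and at 9.31 and 12.97 with it (log2 -2.05, adjusted p = 0.0202 by edgeR). Of the 19, DESeq2 called 2 higher (1.17% of all genes tested) and 2 lower (3.0%), and limma voom 1 higher (0.457%) and 1 lower (1.17%). The calls of the list thus went both ways. Outside that list Ifi206 and Ifi209, members of the HIN-200 family of interferon-inducible genes, and Tgtp2, a GTPase induced by interferon gamma, fell. Ifi206 was at 37.1 and 27.1 RPKM against 6.06 and 8.78, Ifi209 at 56.8 and 59.4 against 19.7 and 18.6, and Tgtp2 at 49.8 and 46.9 against 15.9 and 18.2. All 3 have close paralogues that can share their reads.

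Regulators of survival, division and stress were also among the lower genes. Bcl2, which blocks the mitochondrial route to apoptosis, was at 18.2 and 16.1 RPKM without IL-21 and at 7.92 and 8.04 with it (log2 -1.10, adjusted p = 0.0159 by edgeR). Cdkn2c, which encodes the CDK4 and CDK6 inhibitor p18, was at 37.1 and 31.9 RPKM against 15.0 and 16.9 (log2 -1.11, adjusted p = 0.0402 by edgeR). Bnip3l, a mitophagy receptor, was at 53.9 and 51.7 RPKM against 26.9 and 24.1 (log2 -1.05, adjusted p = 0.0203 by edgeR), the smallest fall among the called genes. Sat1, the enzyme that starts polyamine breakdown, was at 468 and 480.3 RPKM against 143 and 145 (log2 -1.72). For all 4 the groups were apart. Each of the lists that hold Bcl2 and Cdkn2c, 10 BCL2 family and 13 cyclin and cell cycle brake genes tested, had only that 1 call by edgeR (1.31% of all genes tested were called lower) and medians of 0.30 and -0.03. Of the cyclin and cell cycle brake genes DESeq2 called 1 higher (1.17% of all genes tested) and 1 lower (3.0%) and limma voom 0, with Cdkn2c at an adjusted p of 0.0824.

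The lower gene with the largest change was Fhit, a dinucleotide triphosphate hydrolase encoded across a fragile site, at 11.6 and 9.32 RPKM without IL-21 and 1.24 and 1.17 with it (log2 -3.12 ± 0.46 SE, adjusted p = 0.00927 by edgeR). Fhit passed the filter through the 72 h -IL-21 libraries, at 23.8 and 33.2 RPKM. Ighd, the constant gene of the immunoglobulin delta heavy chain, was at 18.3 and 17.2 RPKM against 2.73 and 1.43 (log2 -3.09, adjusted p = 0.0202 by edgeR), while the summed B cell markers were at or below 0.405 RPKM in all 4 libraries. Acyp1, an acylphosphatase, was at 43.9 and 46.2 RPKM against 7.89 and 7.07, and Ramp1, the subunit that makes the calcitonin receptor-like receptor respond to CGRP, at 35.8 and 32.1 against 5.28 and 7.29. All 4 genes were low with IL-21 and none had overlapping groups. Ypel3 was at 163 and 161.5 RPKM against 30.02 and 30.3 (log2 -2.43, adjusted p = 0.0366 by edgeR). Gstm1, a glutathione transferase, was at 371 and 342 RPKM against 105.5 and 90.1 (log2 -1.87). Ms4a4b, a membrane protein of T and NK cells, was at 1425 and 1350.0 RPKM against 571 and 608 (log2 -1.235) and is close in sequence to its neighbours. The other 18 lower genes fell by 1.06 to 2.56 on the log2 scale, among them Phactr3 by 2.56, Dtnbp1 by 1.885, 1110032A03Rik by 1.87 and Gm26510 by 1.75. Phactr3 was at 10.2 and 12.5 RPKM against 2.41 and 1.44, and Dtnbp1 at 52.5 and 41.8 against 14.3 and 11.3. The 18 also include the transcripts Gm26510 and I730030J21Rik, which a count without strand cannot tell from overlapping genes.

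Genes encoded by the mitochondrial genome, all of them for the respiratory chain and its translation, were lower with IL-21 in nearly every case. This set was put together after its values were seen. Of 16 such genes tested, 3 (mt-Co1, mt-Nd4 and mt-Nd5) were called lower, and in 15 both +IL-21 libraries lay below both -IL-21 libraries, where 1.31% of all genes tested were called lower and 33.1% lay below. mt-Co1, a subunit of cytochrome c oxidase, was at 7358 and 7502 RPKM without IL-21 and at 2673 and 2879 with it (log2 -1.42, adjusted p = 0.0159 by edgeR). Mitochondrial transcripts made up 4.76% and 4.58% of the counts without IL-21 and 2.28% and 2.80% with it. The respiratory chain genes of the nucleus showed no such shift, with 50 tested, 22 positive, 28 negative and a median of -0.07. Of these, 0 were called by edgeR, DESeq2 or limma voom. At an unadjusted p under 0.05, 2 were higher and 1 lower, against 5.4% and 9.65% of all genes tested.

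Genes of division gave no call at 24 h. Of 29 DNA replication genes tested 28 were positive, with a log2 median of 0.43, and 0 were called by edgeR, DESeq2 or limma voom or passed an unadjusted p under 0.05. Of 22 mitosis genes tested 9 were positive and 13 negative with a median of -0.06, and 0 were called by any of the 3 tools (1 lower at an unadjusted p under 0.05). The 10 cholesterol and fatty acid synthesis genes tested were all positive with a median of 0.64 and 0 calls by the 3 tools (2 higher at an unadjusted p under 0.05). Cyp51, a sterol demethylase, was at 4.26 and 2.99 RPKM without IL-21 and 16.1 and 13.2 with it (log2 2.02, adjusted p = 0.451 by edgeR). Among 11 glycolysis and hypoxia genes tested 9 were positive with a median of 0.80. The only call by edgeR was Bnip3l, which was lower, where 1.31% of all genes tested were called lower. Of 74 cytosolic ribosomal protein genes tested 0 were called by edgeR, with 1 lower by DESeq2 and 0 by limma voom (2 higher and 7 lower at an unadjusted p under 0.05) and a median of -0.02. Over all genes tested DESeq2 called 3.0% lower. At an unadjusted p under 0.05, 5.4% of all genes tested were higher and 9.65% lower.

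The 24 h values were set beside the 4 libraries of 0 h, of which 2 are labelled 0 h and 2 are labelled 0 h with IL-21. What IL-21 at 0 h means is not given in the sources used here, so these 2 may not be untreated cells, and they lay more than 2-fold apart in 17.1% of genes. Of the 46 genes lower with IL-21, the -IL-21 libraries at 24 h lay above all 4 of the 0 h libraries in 41, against 18.6% of all genes tested, and the +IL-21 libraries lay below all 4 in 31, against 13.8%. Of the 12 higher genes, the -IL-21 libraries lay below all 4 in 10, against 16.9%, and the +IL-21 libraries above all 4 in 6, against 12.5%. Both held for 26 of the 46, against 2.23%, and for 4 of the 12 (Gzmb, Prf1, Lilr4b and Magt1), against 0.885%. In Hspe1, Ppid, Pno1, Eif2s2 and Bzw2 the -IL-21 libraries lay below all 4, while the +IL-21 libraries overlapped them. Gnl3 lay below all 4 in both groups. The 24 h libraries are the ones that made the calls, so these counts are a description. Cd7 was at 405, 447, 367 and 299.7 RPKM at 0 h, between the -IL-21 level of 1496 and 1539 and the +IL-21 level of 179.7 and 179.5. Gzmb was at 3758, 3581, 2578 and 5154 RPKM at 0 h, above the -IL-21 and below the +IL-21 libraries of 24 h. Lilr4b was at 26.7, 29.1, 24.5 and 23.03 RPKM at 0 h, below its +IL-21 libraries of 32.1 and 29.4 by a narrow margin and well above its -IL-21 libraries.

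**Figure D4:**
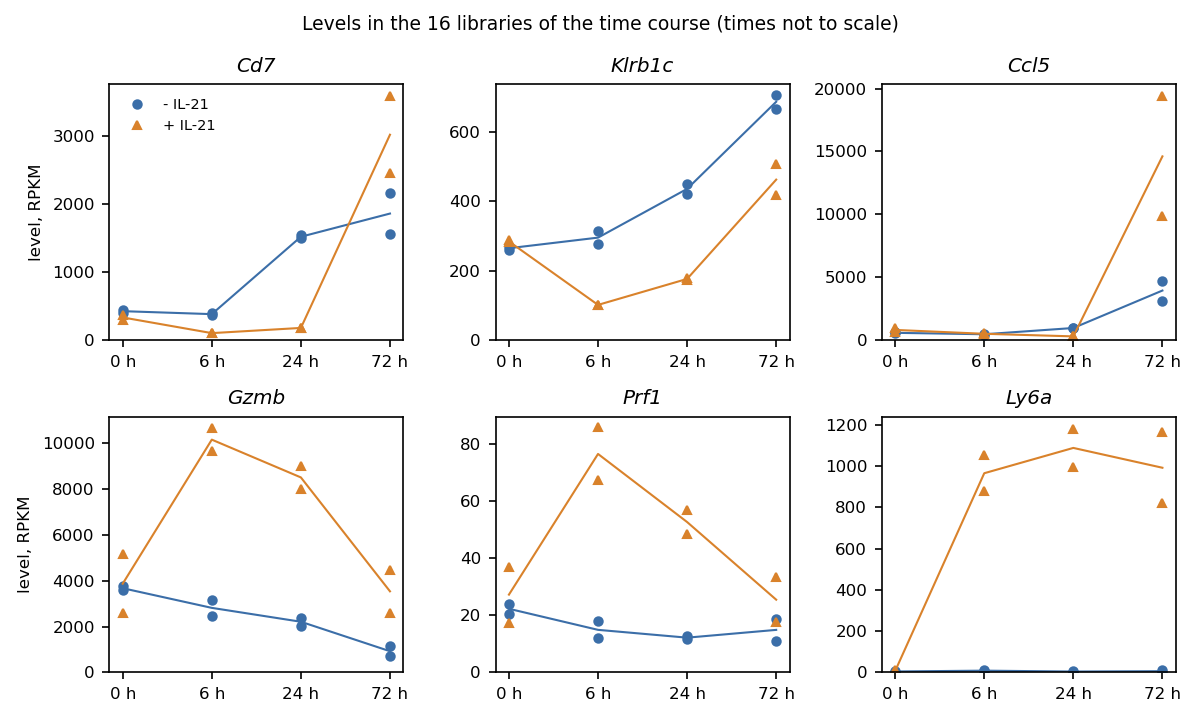
Level (y axis, RPKM on a linear scale) of Cd7, Klrb1c, Ccl5, Gzmb, Prf1 and Ly6a in the 16 libraries of the time course (x axis, hours of culture, not to scale), 1 panel a gene and 1 point a library, with lines through the group means of -IL-21 and +IL-21. Cd7 with IL-21 lies below Cd7 without it at 6 h and 24 h but not at 72 h, where the values are 2165 and 1551 RPKM without and 3578 and 2452 with IL-21. Ly6a lies between 819 and 1181 RPKM in every +IL-21 library from 6 h on.

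At 6 h, measured in other libraries, 69 genes were called, 21 higher (0.599%) and 48 lower (1.37%). Of the higher genes 5 were shared (41.7% of those at 24 h, 23.8% of those at 6 h), and of the lower genes 25 (54.3% and 52.1%). All 12 higher genes of 24 h were positive at 6 h and 45 of the 46 lower genes negative. Cd7 was at 398 and 366 RPKM without and 97.9 and 109 with IL-21 at 6 h. Gzmb was at 3149.8 and 2475 RPKM against 9643 and 10644, and Prf1 at 17.96 and 11.9 against 67.3 and 85.9. Ccl5 was an exception, at 443 and 497 RPKM without IL-21 and 476 and 538 with it. The test of the difference between the 24 h and 6 h effects called 0 genes by edgeR and by limma voom and 2 lower by DESeq2 (22 higher, 0.628%, and 19 lower, 0.542%, at an unadjusted p under 0.05 with a fold above 2). Over all genes tested the log2 fold changes at 24 h and 6 h had a Pearson r of 0.69 and a Spearman rho of 0.66. These points are genes of the same libraries and no replicates of each other, and the 2 comparisons share no library.

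At 72 h 283 genes were called, 230 higher (6.57%) and 53 lower (1.51%), and the log2 fold changes at 24 h and 72 h had an r of 0.22 and a rho of 0.19 across genes. Of the 24 h calls, 5 higher genes were shared (41.7% of those at 24 h, 2.17% of those at 72 h) and 5 lower genes (10.9% and 9.43%), namely Acyp1, Clk1, Fhit, Klrb1 and Zfp945. Ccl5 was called in opposite directions. It was at 3149 and 4741 RPKM without IL-21 at 72 h and at 9849.5 and 19369 with it. The test of the difference between the effects called 148 genes (4.22% of those tested), of which 21 had the higher effect at 24 h (0.599%) and 127 the lower (3.63%). Cd7 and Ccl5 were among the 127, with differences of -3.78 (adjusted p = 5.27e-05 by edgeR) and -3.57 (adjusted p = 0.00061 by edgeR). Gnl3 and Ppid were among the 21, with differences of 1.97 and 2.29. The replicates at 72 h were far apart, as given above, and the -IL-21 libraries there had counts in fewer genes (10728 and 11671, against 14004 and 12004 with IL-21) and a higher mitochondrial share (8.44% and 11.8%, against 4.37% and 5.73%). The part of these in the differences was not tested.

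A separate culture of trNK cells for 72 h with IL-15, with IL-21, and with IL-21 plus the STAT3 inhibitor Stattic (2 libraries each) gave a further reading of the called genes. There IL-21 raised 12 of 4159 genes tested (0.289%) and lowered 0 by edgeR (174 at an unadjusted p under 0.05; no other tool was run). Of the 12 genes higher at 24 h, 10 were tested there, 9 were positive and 3 were called higher. These were Gzmb (log2 3.70, adjusted p = 0.0136 by edgeR), Prf1 (log2 4.08, adjusted p = 0.0139 by edgeR) and Ly6a (log2 7.32, adjusted p = 0.0325 by edgeR). Of the 46 lower genes 39 were tested there, 37 were negative and 0 were called, with 20 lower at an unadjusted p under 0.05. In the contrast of inhibitor with IL-21 against IL-21 alone, which shares the IL-21 libraries with the one before, 75 genes were higher (1.8%) and 48 lower (1.15%). Of the 10 genes tested there that were higher at 24 h, 1 was called lower (Prf1, log2 -2.01, adjusted p = 0.0453 by edgeR). Signs were near an even division, with 5 of these 10 positive and 5 negative (log2 median -0.18). Gzmb and Ly6a, which with Prf1 were the 3 called for IL-21 in that culture, were at -0.98 and -1.37 and not called. Of the 39 that were lower at 24 h, 21 were positive and 18 negative (log2 median 0.05). At an unadjusted p under 0.05, 12 of the 39 were higher and 1 lower, against 443 and 380 of all 4159 genes. Among the 39, 5 were called higher, namely Ypel3, Sat1, Ddit3, Clk1 and Resf1. None of the 5 was called for IL-21 in that culture by edgeR, where Ypel3 was at a log2 fold change of -1.54 and Ddit3 at 0.59.

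The called genes were also read in trNK cells sorted at gd8.5 into trNK-V and trNK-T, the subgroup with the most 4-1BB and CD55. There 378 of 4682 genes tested were higher in trNK-T (8.07%) and 614 lower (13.1%). Of the 12 genes higher with IL-21 at 24 h all were tested, 11 were positive and 7 were called higher in trNK-T. Of the 46 lower genes 41 were tested, 38 were negative, 22 were called lower and 1 (Fcgr3, log2 1.17) was called higher. Gzmb differed by 2.70 (adjusted p = 0.00433 by edgeR) and Prf1 by 1.90 (adjusted p = 0.00359 by edgeR) on the log2 scale. Cd7 differed by -3.84 (adjusted p = 0.00364 by edgeR), Klrb1c by -1.70 (adjusted p = 0.00538 by edgeR) and Ltb by -6.63 (adjusted p = 0.00181 by edgeR). These values are from cells taken directly from the uterus at a later day, so dose, time and source differ from the culture.

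**Figure D5:**
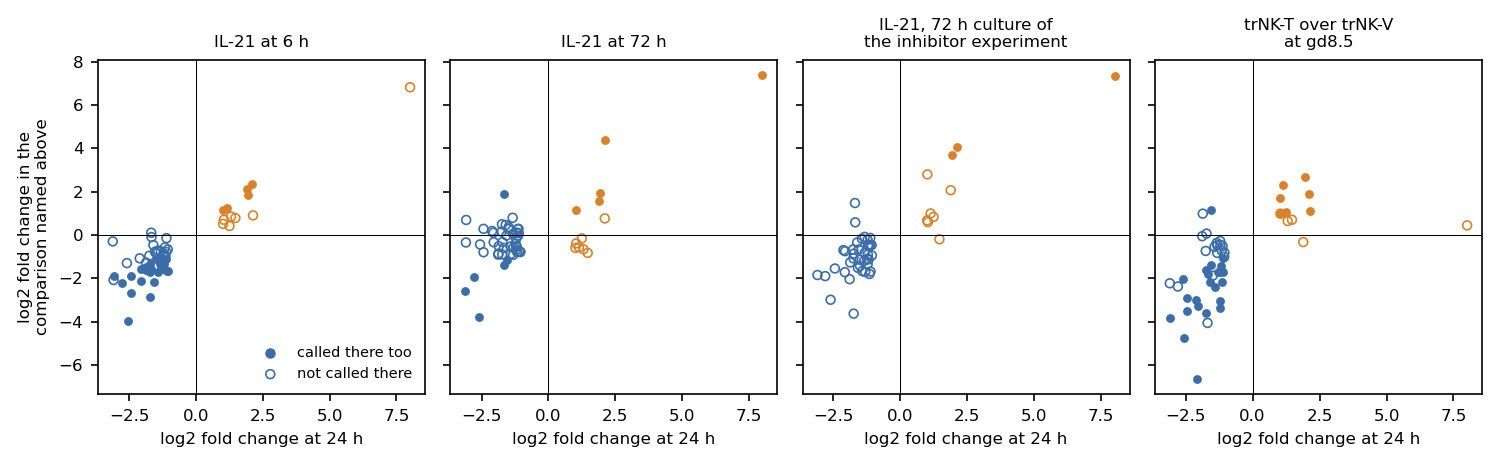
Log2 fold change of the 58 called genes at 24 h (x axis) against their log2 fold change (y axis) at 6 h, at 72 h, with IL-21 in the inhibitor culture, and in trNK-T over trNK-V, 1 panel each and 1 point a gene, filled where the gene was called there. At 6 h all 12 higher genes and 45 of the 46 lower genes keep their sign, and in trNK-T over trNK-V 11 of 12 and 38 of 41 do.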

How the data were processed

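Bulk RNA-Seq counts per gene were analysed as deposited. The authors made cDNA from 5 ng RNA with a full-length single-cell amplification kit and mapped reads to mm10 (HISAT2 2.1.0 in the submitters' processing notes), and the deposited values are whole-number read counts per gene. The processing notes name featureCounts and the study's methods RSEM. Whether counting used strand is not given in the sources used here. No column of the authors' own comparisons was used, and 0 columns of other samples were present. Of 54446 gene IDs, 54409 were matched to a symbol in GENCODE M21.

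The 16 libraries of the time course were fitted together, as 8 groups of 2, with edgeR 4.0.16 (R 4.3.3, TMM factors, quasi-likelihood F test, Benjamini-Hochberg adjustment), after keeping genes above 10 RPKM in both libraries of a group. A call needed an adjusted p under 0.05 and a fold above 2. All tests were two-sided. The SE of a log2 fold change was its size divided by the square root of F. Levels are RPKM on TMM-scaled library sizes, with the gene lengths in the files, and set genes side by side per length. The common biological coefficient of variation was 0.414. The inhibitor culture and the sorted subsets were fitted the same way on their own. The effects at 24 h, 6 h and 72 h were compared as interaction contrasts. On simulated counts for the 24 h comparison with 200 of 3503 genes changed 4-fold, 133 were recovered (66.5%) and 5 of 138 calls were false (3.62%). Gene start windows came from RefSeq (GRCm38.p6), the assembly that mm10 is named for.

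The members and gene lists were chosen with earlier results of these data known. Genes were named where they were among the 15 largest rises or falls among calls, were called members of a list or needed to describe it, were named by the study for these cultures (Prf1, Gzma, Gzmb, Spp1, Tnfrsf9, Cd55, Klrg1, Il21r, Stat3, Il2ra, Il10rb), or were among the 5 largest differences between times in each direction, of which 1 is not reported here. Il10rb, a chain of the IL-10 receptor, was at 13.3 and 12.5 RPKM without IL-21 and at 8.98 and 7.31 with it (log2 -0.66, adjusted p = 0.601). The lower genes Sat1, Ifi209, Tgtp2, Pvrig, Clec2i and Ms4a4b and the mitochondrial genes were chosen after their values were seen. Alternatives were other scalings, other filters, DESeq2 1.42.0, limma voom 3.58.1, other sets of libraries, a replicate block and leaving out each library.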

Additional observations from a re-analysis of the deposited data

Results flagged for a closer look

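The IL-21 effect at 24 h differed from that at 72 h by edgeR's interaction test in 148 genes, of which 21 had the higher effect at 24 h and 127 the lower. Differences below are the log2 fold change at 24 h minus that at 72 h. Of the genes lower with IL-21 at 24 h, the receptors, secreted factors and membrane proteins Cd7, Ccl5, Ltb, Pglyrp1, Fcgr3 and Pvrig differed by -3.78, -3.57, -2.17, -2.13, -1.55 and -1.41. The interferon-inducible and immunity-related genes Ifi206, Ifi209, Tgtp2 and Gimap3 differed by -2.3, -2.07, -1.79 and -1.32. Fam189b, Gm26510, Ssbp2, H2afv, Sat1 and Gab3 differed by -2.24, -1.91, -1.86, -1.44, -1.4 and -1.38. Of these 16 genes only Ccl5 was called at 72 h, where it was higher with IL-21.

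Of the genes higher with IL-21 at 24 h, Ppid, Gnl3, Pno1, Magt1 and Eif2s2 differed by 2.29, 1.97, 1.7, 1.6 and 1.43, and none of the 5 was called at 72 h. Among the 21 genes called for a higher effect at 24 h, the 5 largest differences were AI597479 (7.68), Ddx10 (3.88), Esf1 (2.91), Nup43 (2.89) and Fra10ac1 (2.75), each called lower with IL-21 at 72 h and not called at 24 h. Ddx10 and Esf1 take part in making ribosomes, and Nup43 belongs to the nuclear pore.

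Of the 5 largest differences among the 127 genes called the other way, 4 are given here. They were in genes with 0 counts in the -IL-21 libraries at 72 h, so they are bounds taken at a floor of 3 counts per library. Ccnb2, a mitotic cyclin, was at -9.82 or below, Gng11 at -8.64, Cenpk at -8.36 and Gnpda1 at -8.2. At 72 h their mean with IL-21 was 676, 114, 306 and 370.0 times that floor. The ratios of +IL-21 to -IL-21 at 24 h were 0.746, 0.286, 0.931 and 1.26. Ccnb2 with IL-21 was at 324 and 290 RPKM at 24 h and at 47.4 and 49.6 at 72 h. Cenpk with IL-21 was at 31.5 and 36.4 RPKM at 24 h and at 5.52 and 7.32 at 72 h. For these genes the large ratios thus came with a lower level at 72 h than at 24 h in both groups. The +IL-21 replicates at 72 h were far apart for Gnpda1 (32.5 and 1.44 RPKM) and Gng11 (1.56 and 25.7 RPKM), so each of these ratios rests mostly on 1 library. The -IL-21 libraries at 72 h had counts in 10728 and 11671 genes, against 14004 and 12004 with IL-21, and 8.44% and 11.8% of their counts were mitochondrial, against 4.37% and 5.73%. Their part in these values was not tested. Groups of 2 libraries were not tested for outlying samples.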

How the results depend on the processing

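Of the 58 calls at 24 h (12 higher, 46 lower), each made on 2 libraries a group, no gene changed sign under any setting. Other scalings, the RPKM filter on the 24 h groups, limma voom (16 and 41), the 0 h libraries as 1 group (12 and 54) and no fold limit kept both counts within 1.5 times. With filterByExpr or no expression filter 0 were higher and 1 lower, over more genes tested. DESeq2 gave 41 higher and 105 lower, the 24 h libraries alone 147 and 220, the unadjusted p 78 and 168, and the fit without the 72 h libraries, chosen after seeing the data, 78 and 136. The higher share of calls was 20.7%, 28.1% by DESeq2 and limma voom, 31.7% by the unadjusted p, 36.4% without the 72 h libraries and 40.1% with the 24 h libraries alone. Of the 58 calls limma voom kept 50, losing Ltb, Ifi206, Ypel3, Ddit3, Cdkn2c, I730030J21Rik, Gnl3 and Pno1 at adjusted p of 0.0527 to 0.0824. Leaving out 1 library gave 0 to 28 higher and 1 to 77 lower. A library left alone in its group was assumed to vary like the other groups. Without 24 h -IL-21 replicate 1, 5 genes stayed called, and without any other 24 h library 1. The difference from 6 h stayed at 0 calls with each library left out, but DESeq2 gave 2 lower and the unadjusted p 22 higher and 19 lower. The difference from 72 h (21 and 127) became 34 and 327 with filterByExpr, 296 lower with no filter, 83 and 255 by DESeq2, 149 and 393 by the unadjusted p, and 4 to 128 higher and 59 to 641 lower with 1 library left out. Klrg1 turned from 0.00 to -0.0031 with filterByExpr, -0.013 with no filter and -0.0027 with the 24 h libraries alone, and lay between -0.018 and 0.043 with 1 library left out. Cd55 lay between -0.28 and 0.12 with 1 library left out. Same-numbered libraries shared little of their deviation across genes (correlations of 0.19, -0.17, -0.09 and 0.12 at the 4 times). With 2 libraries a group this cannot settle whether they were paired, which is not given in the sources used here. With the replicate number as a block 8 genes were higher and 38 lower at 24 h, 46 of the 58 calls, and 20 and 111 differed from 72 h. Where not stated, the cause of a change was not tested.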

Other observations

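Lists not described above held few calls at 24 h. Over all genes tested an unadjusted p under 0.05 was met by 5.4% higher and 9.65% lower, and DESeq2 called 1.17% higher and 3.0% lower. Of 9 amino acid response genes tested 8 were positive with a log2 median of 0.89, and 0 were called by edgeR, DESeq2 or limma voom or at an unadjusted p under 0.05. That median was 0.52 over 23 genes with filterByExpr and 0.38 over 28 genes with no expression filter. Between single libraries of the 2 groups it lay from 0.53 to 0.76. Asns, asparagine synthetase, was at 3.05 and 1.97 RPKM without IL-21 and at 12.98 and 8.45 with it (log2 2.09, adjusted p = 0.63 by edgeR). Of 17 annexin, S100 and galectin genes tested 12 were negative with a median of -0.28, 0 were called by edgeR and limma voom and 1 was lower by DESeq2 (5 lower at an unadjusted p under 0.05). Of 15 MHC class I and antigen processing genes 0 were called by the 3 tools (2 lower at an unadjusted p under 0.05), with a median of -0.10. Of 8 checkpoint and TNF receptor genes tested 0 were called by edgeR and limma voom and 1 was lower by DESeq2 (2 lower at an unadjusted p under 0.05), with a median of 0.10. Of 11 adhesion, homing and egress genes 0 were called by the 3 tools (3 lower at an unadjusted p under 0.05), with a median of 0.10. Of 10 NRF2 target and redox genes 0 were called by the 3 tools (1 higher and 2 lower at an unadjusted p under 0.05), with a median of 0.32. Of 6 lymphocyte transcription factors and 5 immediate early genes tested 0 were called by the 3 tools or at an unadjusted p under 0.05, with medians of 0.08 and -0.03. Of 4 cytokine feedback genes tested 0 were called by edgeR and limma voom and 1 was higher by DESeq2 (1 higher at an unadjusted p under 0.05), with a median of 0.73. Over 15 cytokine feedback genes the median was 0.12 with filterByExpr and 0.11 with no expression filter. Pim2, a survival kinase among the 4 tested, was at 11.9 and 13.5 RPKM without IL-21 and at 30.4 and 28.7 with it (log2 1.22, adjusted p = 0.521 by edgeR).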
